A study of Oryza sativa with 4 samples.

Results

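Cytokinin is a plant hormone of cell division, shoot growth and leaf ageing. It binds histidine kinase receptors, which pass a phosphate group through histidine phosphotransfer proteins to response regulators in the nucleus. Type-B regulators are DNA-binding proteins that switch on the early targets of the hormone. Among those targets are the type-A regulators, short proteins with a receiver domain and no DNA-binding domain, which feed back to damp the signal and whose transcripts are widely used as a readout of cytokinin response. The set described here is 9 rice type-A genes, chosen by locus as rr1 to rr7, RR9 and RR10, out of the 57995 loci in the files. The rule names loci and uses no measured value, but the set was picked with earlier results of these data known.

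The plants were seedlings of Oryza sativa, genotype Dongjin, grown for 7 days under 16 h light and 8 h dark at 23 °C. Leaf RNA came from a control group of 2 libraries and a group of 2 libraries given 5 mM CysNO (S-nitrosocysteine, a nitric oxide donor) by irrigation; the labels name 1 mM HCl as the buffer. No group received cysteine without the nitric oxide, so the parts of the molecule cannot be told apart. Whether the libraries in a group are from different plants is not stated in the labels, so every p-value reflects the spread among these libraries alone, and that spread may be technical.

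Levels are given in FPKM, that is, fragments scaled by transcript length and by the mapped total of the library, so that levels can be compared between genes. Libraries summed to between 687469 and 732401 FPKM, and relative depth, read from 493 loci of low expression with control 1 set to 1, was between 0.828 and 1.09. Absolute depth is unknown, so no counting interval could be given. The leaf genes RBCS, for the small subunit of Rubisco, and CAB2R and CAB1R, for light-harvesting proteins, were present in all 4 libraries at 256 to 2320 FPKM. Their log2 fold changes, CysNO against control, were -0.63, -0.47 and -0.23 (limma, adjusted p from 0.547 to 0.828), the same sign as the median of the type-A genes given below, and CAB2R was lower in both CysNO libraries (1280 and 1997 FPKM) than in both controls (2320 and 2110 FPKM). RBCS read 1122 and 676 FPKM in the controls and 430 and 731 FPKM in CysNO, and CAB1R 436 and 256 FPKM in the controls and 279 and 288 FPKM in CysNO, so both overlapped between the groups. The part of these 3 leaf genes in the results below was not tested. In bulk leaf RNA, fewer cells of a type and less RNA per cell cannot be told apart.

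All 9 genes passed the filter on low values (at least 1 FPKM in at least 2 libraries) and were tested with limma on log2(FPKM + 1). None of the 9 was called at a Benjamini-Hochberg adjusted p under 0.05 over all 21123 tested loci, where 4.23% of loci were called in either direction. The limma adjusted p of the 9 genes ran from 0.205 to 0.915. By estimate, 6 genes had lower and 3 had higher values in CysNO, with log2 fold changes from -0.85 to 0.21 and a median of -0.57. The median over all tested loci was -0.014, and 51.1% of them had a log2 fold change below 0. The groups did not overlap in 5 of the 9 genes, rr1, rr2, rr3, RR9 and RR10, and each of these was lower in both CysNO libraries than in both controls. Among all tested loci 24.9% were lower with no overlap. In 0 of the 9 genes were both CysNO libraries above both controls, against 21.5% of all tested loci. The near-identical RR9 and RR10, described below, are both in the count of 5 above and in the count that follows. How reads that match both were divided is not stated, so these 2 genes may not be separate cases. At an unadjusted p under 0.05, 3 of the 9 genes (rr2, RR9 and RR10) were lower and 0 were higher, where 8.39% of all tested loci were lower by that rule. This count was 1 without control 1 (rr5, which is not among the 3), 1 without CysNO 1 (RR9), 1 without CysNO 2 (RR10), 2 without control 2 (rr2 and RR10) and 1 with no filter on low values (RR9).

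**Figure D1:**
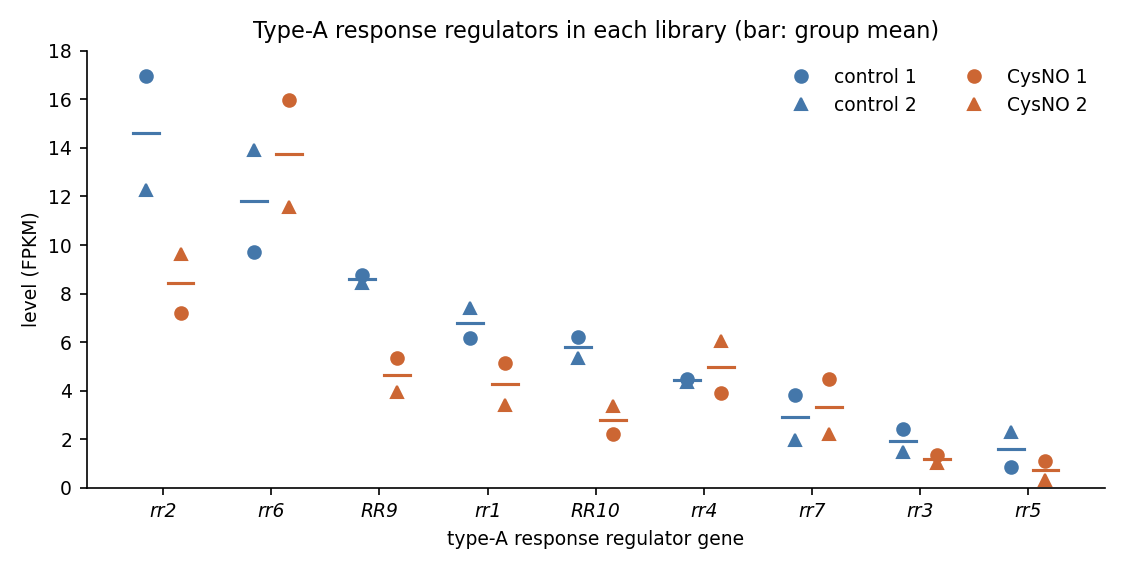
Level in FPKM (vertical axis, linear) of the 9 type-A response regulator genes in each of the 4 libraries, ordered by control mean, with short bars for group means. In rr2, RR9, rr1, RR10 and rr3 both CysNO points lie under both control points, and in rr6, rr4, rr7 and rr5 the groups overlap.

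On log2(FPKM + 1) with all 4 libraries, the lowest estimates belonged to RR9 and RR10. With a library left out this order changed. Without control 1, rr5 was lowest (-0.97). Without CysNO 1, rr5 (-0.89) and rr1 (-0.82) lay below RR10 (-0.63). rr2 lay below RR9 without control 2 (-0.94 and -0.80) and without CysNO 2 (-0.91 and -0.59). With a pseudocount of 0.1 rr5, a gene of low level, was lowest at -1.07, against -1.05 for RR10 and -0.89 for RR9. RR9 and RR10 are a pair of near-identical genes on a segment that the short arms of chromosomes 11 and 12 share by duplication. In rice, plants that lack both genes are known for better salt tolerance. RR9 (LOC_Os11g04720, chromosome 11, bases 2009229 to 2011263, plus strand) has no symbol in the files, which give the symbol rr9 to LOC_Os12g04500 on chromosome 12 (bases 1914854 to 1916596, plus strand). The RefSeq gene table has RR9 on chromosome 11 and RR10 on chromosome 12, each with a length that differs by less than 10% from the span in the files, and those names are used here.

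RR9 read 8.76 and 8.43 FPKM in the controls and 5.37 and 3.93 FPKM in CysNO. Both CysNO libraries were below both controls, and the controls lay close together. Its group means were 8.59 ± 0.234 and 4.65 ± 1.01 FPKM (SD, n = 2). The log2 fold change was -0.78 ± 0.29 (SE), with a 95% interval of -1.46 to -0.095 and a limma adjusted p of 0.214. With a library left out, the estimate for RR9 ran from -0.59 (without CysNO 2) to -0.96 (without CysNO 1).

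RR10 read 6.22 and 5.36 FPKM in the controls and 2.21 and 3.39 FPKM in CysNO. The groups were again apart, with the CysNO libraries lower. Its means were 5.79 ± 0.612 and 2.80 ± 0.833 FPKM (SD, n = 2). The log2 fold change was -0.85 ± 0.31 (SE), with a 95% interval of -1.58 to -0.12 and a limma adjusted p of 0.205. With a library left out, the estimate for RR10 ran from -0.63 (without CysNO 1) to -1.08 (without CysNO 2). How the authors divided reads that match both genes is not stated, so the level of each is uncertain. The sum of the pair, which also depends on how such reads were counted and on the length of each gene, was 15.0 and 13.8 FPKM in the controls and 7.58 and 7.32 FPKM in CysNO, so the groups were apart by more than the spread within either. The ratio of RR9 to RR10 was 1.41 and 1.57 in the controls and 2.43 and 1.16 in CysNO, so the groups overlapped for the ratio.

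rr2 (LOC_Os02g35180, chromosome 2, bases 21122752 to 21125502, minus strand) is known in rice as a gene that the transcription factor WOX11 represses in emerging crown roots. It read 16.9 and 12.3 FPKM in the controls and 7.21 and 9.63 FPKM in CysNO. The groups did not overlap, and the spread within the controls was wider than in RR9. Its log2 fold change was -0.72 ± 0.30 (SE), with a 95% interval of -1.42 to -0.023 and a limma adjusted p of 0.260. Leaving out control 1 gave an estimate of -0.51, and leaving out control 2 gave -0.94.

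rr1 (LOC_Os04g36070, chromosome 4, bases 21851883 to 21855731, minus strand) is known in rice as a target of the crown root factor CRL5. It read 6.15 and 7.41 FPKM in the controls and 5.15 and 3.41 FPKM in CysNO. The groups did not overlap, although control 1 and CysNO 1 stood close. Its log2 fold change was -0.58 ± 0.31 (SE), with a 95% interval of -1.30 to 0.15 and a limma adjusted p of 0.406. Without CysNO 2 it was -0.33, and without CysNO 1 it was -0.82. rr1 shares 893 bases with LOC_Os04g36062 on the opposite strand, which read 3.55 and 2.63 FPKM in the controls and 2.87 and 2.48 FPKM in CysNO. RR9 shares 130 bases with LOC_Os11g04730, also on the opposite strand, which read 3.61 and 2.74 FPKM in the controls and 4.73 and 2.08 FPKM in CysNO. Whether strand was used in counting is likewise not stated, so reads in these stretches cannot be assigned. The 7 other type-A genes overlap no other locus in the files.

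rr3 and rr5 are known in rice for weaker cytokinin sensitivity when overexpressed, and both were near the limit of the filter. rr3 (LOC_Os02g58350, chromosome 2, bases 35683378 to 35684521, minus strand) read 2.42 and 1.47 FPKM in the controls and 1.37 and 1.03 FPKM in CysNO. The groups did not overlap, but control 2 and CysNO 1 differed by less than the controls did from each other. Its log2 fold change was -0.41 ± 0.33 (SE; limma, adjusted p = 0.624), and -0.17 without control 1. rr5 (LOC_Os04g44280, chromosome 4, bases 26042090 to 26043309, plus strand) read 0.877 and 2.28 FPKM in the controls and 1.10 and 0.338 FPKM in CysNO. The lower control fell between the CysNO libraries, so the groups overlapped. Its log2 fold change was -0.57 ± 0.41 (SE; limma, adjusted p = 0.563), and it ranged from -0.16 without control 2 to -0.97 without control 1. A pseudocount of 1 understates the change of such low genes, and with 0.1 the estimate for rr5 was -1.07.

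The other 3 genes had higher means in CysNO and overlapping groups. rr6 (LOC_Os04g57720, chromosome 4, bases 34190872 to 34192251, plus strand), whose overexpression in rice is known to weaken cytokinin response and shoot formation, read 9.71 and 13.9 FPKM in the controls and 16.0 and 11.6 FPKM in CysNO. The lower CysNO library lay between the controls. Its log2 fold change of 0.21 ± 0.31 (SE) had a 95% interval of -0.51 to 0.93. That interval leaves room for a fall to 0.702 times and for a rise to 1.90 times the control on the log2(FPKM + 1) scale. rr4 (LOC_Os01g72330, chromosome 1, bases 41947909 to 41951345, plus strand) read 4.47 and 4.37 FPKM in the controls and 3.90 and 6.03 FPKM in CysNO. The controls agreed closely and lay between the CysNO libraries, and the log2 fold change was 0.11 ± 0.31 (SE; limma, adjusted p = 0.914). rr7 (LOC_Os07g26720, chromosome 7, bases 15439896 to 15441187, plus strand) read 3.84 and 1.97 FPKM in the controls and 4.48 and 2.21 FPKM in CysNO. Each group held a high and a low library, so the spread within groups exceeded the difference between them (log2 fold change 0.14 ± 0.40, SE; limma, adjusted p = 0.915). The sign of each of these 3 estimates turned when 1 library was left out. It turned for rr4 without CysNO 2 (-0.15), for rr6 without control 1 (-0.031) or CysNO 1 (-0.0084), and for rr7 without control 2 (-0.21) or CysNO 1 (-0.24).

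**Figure D2:**
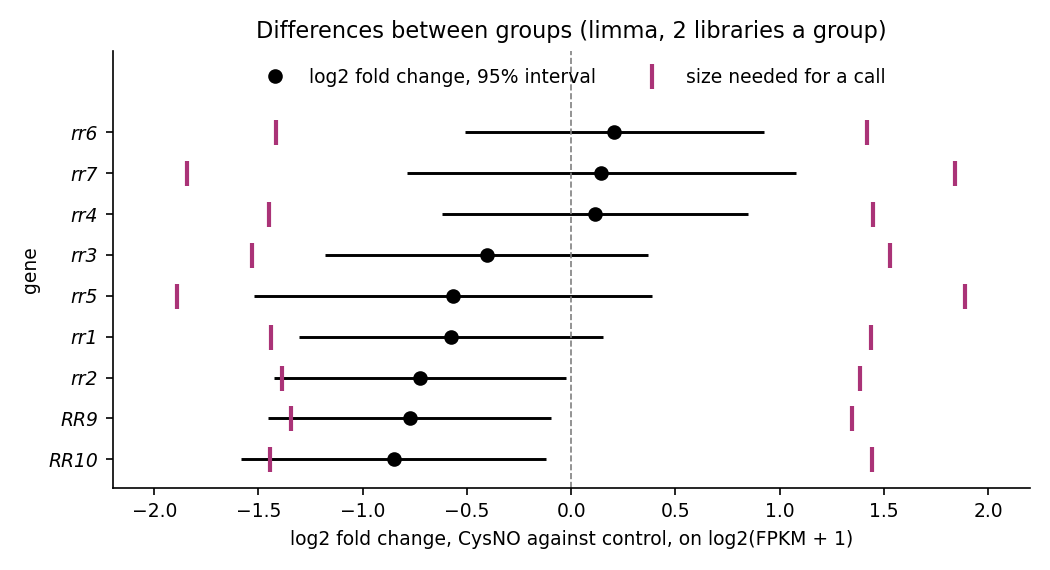
Log2 fold change of each type-A gene, CysNO against control, on log2(FPKM + 1), with its 95% interval from limma (2 libraries a group); the purple marks show the size at which that gene would have been called. The intervals of RR10, RR9 and rr2 lie below 0, and every estimate is nearer to 0 than its marks, which stand between 1.35 and 1.89.

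The precision of the test bears on these results. The largest unadjusted limma p among called loci was 0.00211, so a type-A gene with the standard error it had (0.29 to 0.41) needed an absolute log2 fold change of 1.35 to 1.89 to be called. All 9 estimates were smaller than that. The 95% intervals of 3 genes, RR10, RR9 and rr2, left out 0 before adjustment for the number of loci, and those of the other 6 did not.

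**Figure D3:**
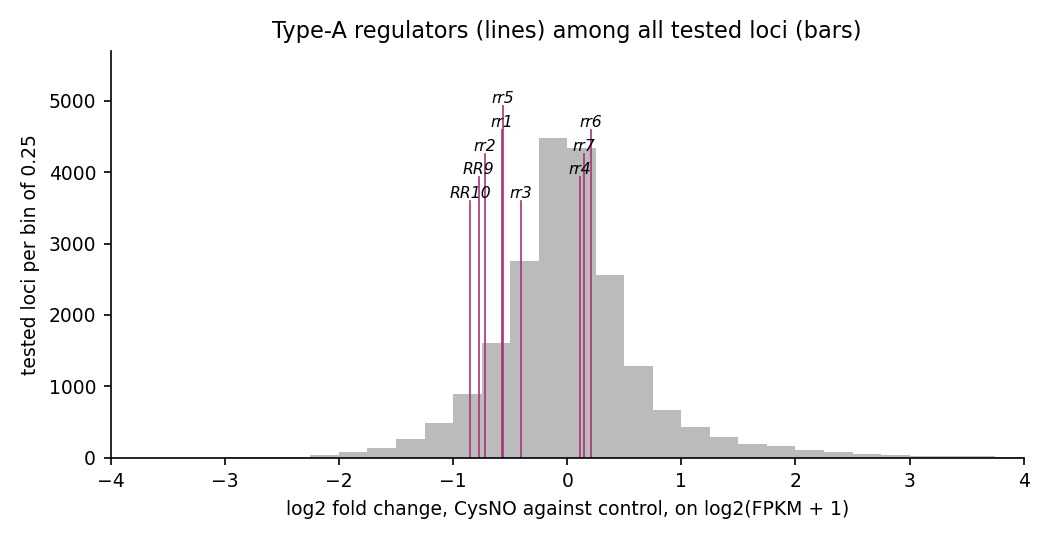
Number of tested loci in bins of 0.25 on the log2 fold change (grey bars, CysNO against control on log2(FPKM + 1)), with a line for each type-A gene; line heights only space the names, and 33 of the 21123 loci lie outside the axis. The 6 genes with lower estimates lie between -0.85 and -0.41 and the other 3 between 0.11 and 0.21.

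The order of the levels differed between the groups. In the controls rr2 had the highest mean (14.6 ± 3.30 FPKM, SD, n = 2), followed by rr6 (11.8 ± 2.97), RR9, rr1, RR10, rr4, rr7, rr3 and rr5 (1.58 ± 0.994). Of these neighbours, rr2 and rr6, rr1 and RR10, rr7 and rr3, and rr3 and rr5 overlapped in their library values, and the others did not. In CysNO rr6 came first (13.8 ± 3.10 FPKM, SD, n = 2), above rr2 (8.42 ± 1.71) with no overlap. rr4, RR9, rr1, rr7 and RR10 followed, each overlapping the next, and then rr3 and rr5, which overlapped each other. rr6 was 0.573 and 1.13 times the level of rr2 in the controls, and 2.21 and 1.20 times in CysNO. The higher control ratio and the lower CysNO ratio lay close to each other. Averaged over the 4 libraries, rr6 and rr2 were the only type-A genes above the median level of the tested loci, 9.37 FPKM.

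Summed over the 9 genes, the level was 59.4 and 57.5 FPKM in the controls and 46.7 and 41.5 FPKM in CysNO. Both CysNO sums were lower than both control sums, by more than the spread within either group. rr6 made up 16.4% and 24.2% of the sum in the controls and 34.1% and 27.8% in CysNO, and rr2 made up 28.5% and 21.4% against 15.4% and 23.2%. The share of rr6 did not overlap between the groups, and that of rr2 did. A share also depends on the sum, which was lower in CysNO, and the level of rr6 itself overlapped between the groups.

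**Figure D4:**
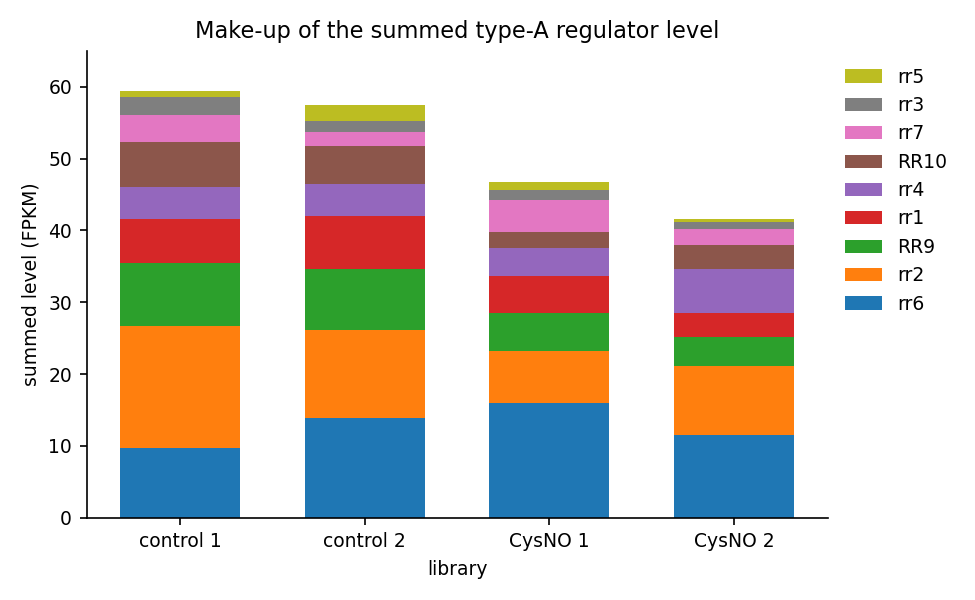
FPKM of the 9 type-A genes stacked by library, so that bar height is their summed level (59.4 and 57.5 in the controls, 46.7 and 41.5 in CysNO). The segments of RR9 and RR10 are shorter in both CysNO libraries, while the rr6 segment is not.

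The 9 genes did not follow a single pattern over the 4 libraries. Likeness was measured as the Euclidean distance between log2(FPKM + 1) values after centring each gene on its own mean, over 4 libraries, and is a description only. Of the 36 pairs the nearest were rr2 with RR10 (0.225) and rr1 with RR9 (0.294), and the farthest was rr7 with RR10 (1.37). The duplicates RR9 and RR10 were 0.592 apart, since RR9 was lowest in CysNO 2 and RR10 in CysNO 1. For rr6, the most abundant gene by the mean over all 4 libraries, the nearest of 396 other tested loci with a symbol were Gal3 (0.117), gh3.1 (0.118) and SODCC1 (0.124). All 3 had their lowest value in control 1 and their highest in CysNO 1, as rr6 did. The locus gh3.1 was near the limit of the filter, at 0.694 and 1.33 FPKM in the controls and 1.41 and 0.894 FPKM in CysNO. At such levels a pseudocount of 1 narrows differences between libraries.

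The remaining steps of the pathway, with 4 further type-A loci, were covered by 49 loci. Of these 26 carried a name in the files or could be matched to the gene table, and 24 were tested. Of those 24, 3 were called higher and 0 lower in CysNO (limma, adjusted p under 0.05). Among all tested loci 3.27% were called higher and 0.956% lower. By estimate, 11 of the 24 were higher and 13 lower. The LOG list, for enzymes that release active cytokinin from its nucleotide form, had 8 tested genes. Of these 1 was called higher and 0 lower (median log2 fold change 0.030). The gene called was LOGL8 (LOC_Os05g51390), which read 0.721 and 0.795 FPKM in the controls and 12.6 and 7.02 FPKM in CysNO. Its log2 fold change was 2.57 ± 0.35 (SE; limma, adjusted p = 0.0115). The most abundant gene of that list, Log, read 95.1 and 55.8 FPKM in the controls and 119 and 186 FPKM in CysNO and did not pass (limma, adjusted p = 0.196). LOGL10 went the other way by estimate. Its controls stood at 32.2 and 32.4 FPKM and its CysNO libraries at 18.5 and 15.9 FPKM, and it did not pass either (limma, adjusted p = 0.115). LOGL10 was picked with its values in view.

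The list of cytokinin oxidases, which break cytokinin down, had 5 tested genes. Of these ckx5 and ckx4 were called higher and 0 were called lower (median log2 fold change -0.47). ckx5 had a log2 fold change of 2.31 and ckx4 one of 1.91 (limma, adjusted p = 0.0100 and 0.0237). The other 3, ckx3, CKX9 and CKX11, had log2 fold changes of -0.47, -0.60 and -0.84 and did not pass. CKX11 read 23.0 and 6.13 FPKM in the controls and 5.05 and 7.79 FPKM in CysNO, so its groups overlapped and its estimate leaned on control 1. Both ckx3 and CKX9 were lower in both CysNO libraries but near the limit of the filter. Their CysNO libraries read 0.696 and 0.794 FPKM for ckx3, and 0.570 and 0.641 FPKM for CKX9. The calls of LOGL8, ckx5 and ckx4 were lost with no filter on low values (limma, adjusted p = 0.123, 0.102 and 0.144), without CysNO 1 (0.252, 0.230 and 0.255) and without CysNO 2 (0.198, 0.214 and 0.240). That of ckx4 was also lost with quantile normalization (0.0609), median centring (0.0672) and without control 1 (0.0548).

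None of the tested genes for signal transfer upstream of the type-A regulators was called by limma. Listed loci that could not be named were left out, so 3 of 4 receptor, 4 of 5 phosphotransfer and 4 of 8 type-B loci were tested. At an unadjusted limma p under 0.05 there was 1, RR21, which was higher. The share of all tested loci higher by that rule was not counted. The receptor HK3 read 23.3 and 19.9 FPKM in the controls and 23.3 and 22.3 FPKM in CysNO. It was the most abundant of 3 tested receptors, and its groups overlapped (log2 fold change 0.079 ± 0.25, SE). Those of HK4 overlapped too (log2 fold change -0.018). HK5 was lower in both CysNO libraries (5.20 and 5.07 FPKM) than in both controls (8.67 and 6.04 FPKM). Its log2 fold change of -0.43 did not pass (limma, adjusted p = 0.548). The phosphotransfer gene AHP2 read 68.2 and 65.5 FPKM in the controls and 65.7 and 55.5 FPKM in CysNO. It was the most abundant of 4 tested genes on the phosphotransfer list, AHP1, AHP2, PHP2 and PHP5. All had overlapping groups and log2 fold changes below 0, at -0.077, -0.14, -0.064 and -0.25 (median -0.11). Whether PHP2 and PHP5 pass on the phosphate group was not examined, so that median may mix genes of unlike function. The type-B regulator RR21 read 15.4 and 13.6 FPKM in the controls and 26.0 and 22.2 FPKM in CysNO. Both CysNO libraries were higher, with a log2 fold change of 0.70 ± 0.26 (SE) that did not pass (limma, adjusted p = 0.211). The other 3 tested type-B genes, RR22, RR23 and RR24, had log2 fold changes of 0.029, -0.63 and 0.48. The groups overlapped in RR22, while both CysNO libraries were lower in RR23 and higher in RR24. Of the 4 further type-A loci only 1, rr8, could be named. It is listed at 0 in all 4 libraries and was not tested.

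**Figure D5:**
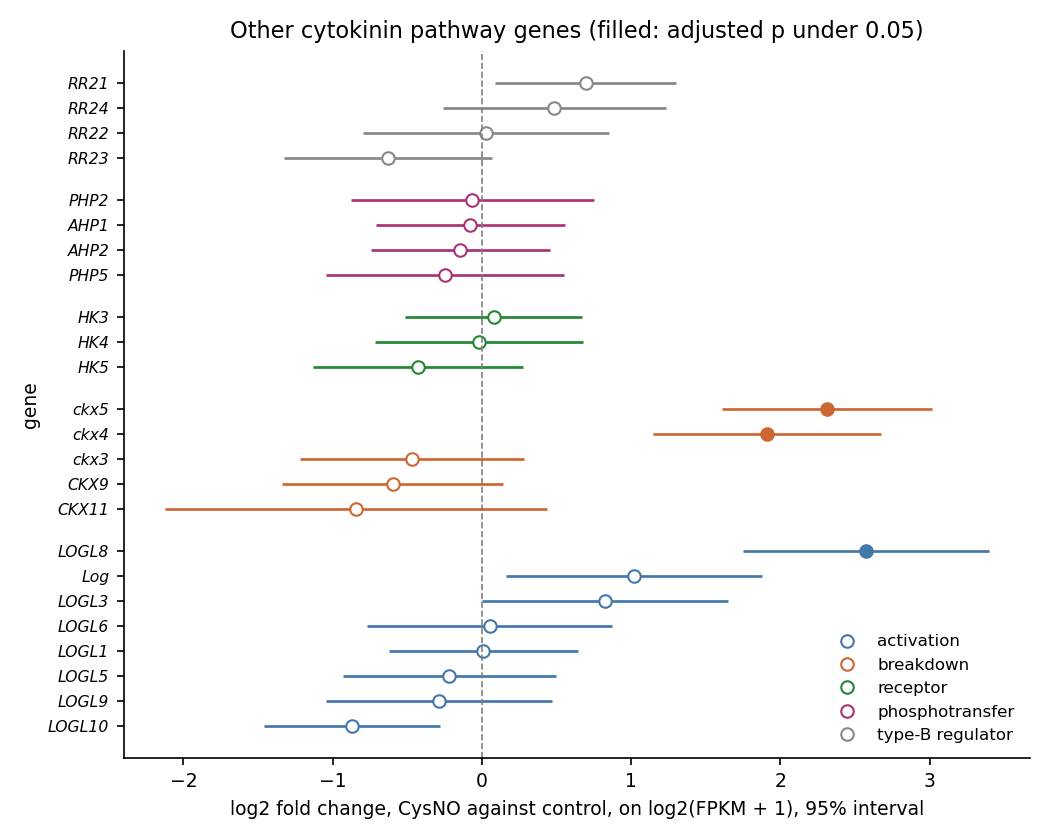
Log2 fold change, CysNO against control on log2(FPKM + 1), with the 95% interval from limma, for the 24 tested genes of cytokinin activation, breakdown, reception, phosphotransfer and type-B regulation. The filled points, at an adjusted p under 0.05, are ckx5, ckx4 and LOGL8, and all other intervals come with open points.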

How the data were processed

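Per the file headers, each library's table as deposited holds an FPKM value for every locus; per the labels' protocols the libraries were poly(A) TruSeq libraries read as 100 bp pairs. Bowtie 0.12.2 and a mouse genome build, which cannot be that of rice loci, stand in the submitters' processing notes. No source used here states the counting program, the annotation or the build of the coordinates.

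The test was limma (version 3.58.1, R 4.3.3, mean-variance trend, two-sided) on log2(FPKM + 1). It covered 21123 loci that reached 1 FPKM in 2 or more libraries, with Benjamini-Hochberg adjustment over all of them. The fit had 2 residual and 5.36 prior degrees of freedom. It was also run on simulated data, drawn from its own model of the variances with changes placed only at loci of higher level. That run therefore cannot show how the test does on genes of low level or where the model fails. An exact permutation test of 2 against 2 cannot go below p = 0.333 and was not used.

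Members and lists were chosen with earlier results of these data known. The genes named by rule are the 9 members, up to 3 called loci of each pathway list (largest change first) or else its most abundant, and the 3 nearest to the most abundant member. The leaf genes were named as a check of the tissue. Log, LOGL10, ckx3, CKX9, CKX11, HK4, HK5, AHP1, PHP2, PHP5, RR22, RR23, RR24 and rr8 were named outside the rule. A locus without a symbol was named only where the RefSeq table of assembly ASM3414082v1 has that name on the same chromosome, with a span within 10% and a start within 6 Mb. That table has 8 of the 9 members' numbers on the right chromosome (not rr3), 7 of them within that span (not rr7). None of the 6 listed loci for cytokinin synthesis enzymes (isopentenyltransferases) could be named, and they were left out. Named were 8 of 11 LOG loci, 6 of 11 cytokinin oxidase loci and 1 of 4 further type-A loci, and the rest were likewise left out. Sequences were not used here.

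Each library was left out in turn, and the replicate number was used as a block. Other alternatives were a pseudocount of 0.1, a mean of at least 5 FPKM or no filter, median centring, and quantile normalization. Crossed replicate numbers were added after seeing the data.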

Additional observations from a re-analysis of the deposited data

How the results depend on the processing

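Under 10 other settings 0 type-A genes were called by limma, of 9 tested or of 4 with a mean of at least 5 FPKM, and the lowest adjusted p was 0.162. Crossed replicate numbers also gave 0 calls. Of 85 single-gene estimates 80 kept their sign. The 5 that turned were rr4 at -0.145 without CysNO 2, rr6 at -0.0311 without control 1 and -0.00836 without CysNO 1, and rr7 at -0.207 without control 2 and -0.240 without CysNO 1. Many of the 80 could not have turned. A changed filter or the replicate block leaves an estimate as it was. A gene whose groups do not overlap keeps its sign when a library is left out. With a library left out, rr4 ranged up to 0.374, rr6 to 0.447 and rr7 to 0.529, and HK3 ranged from -0.0289 without control 2 to 0.186. The median over the type-A genes ranged from -0.54 to -0.30 with a library left out, and the value nearest 0 came without CysNO 2. The count lower with no overlap was 5 or 6 with a library left out. Removing a library cannot make separate groups overlap, so that count could not fall below 5. The count was 3 of the 4 genes left by a mean of at least 5 FPKM. The count at an unadjusted p under 0.05, 3 with all libraries, was 1 with no filter, 1 without control 1, CysNO 1 or CysNO 2, and 2 without control 2.

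Over all loci, 691 were called higher and 202 lower. These counts were 393 and 87 with quantile normalization, 381 and 68 with median centring and 2 and 0 with no filter. With a library left out they ranged from 0 to 816 higher and from 0 to 484 lower, with at most 1 call left when CysNO 1 or CysNO 2 was the library removed; a lone library was assumed to vary like the other group. The other pathway loci called, 3 in the fit with all libraries, were 0 with no filter, between 0 and 4 with a library left out, and 0 with the replicate block.

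The labels give both groups the numbers 1 and 2 without saying that a number marks a shared batch, and same-numbered libraries deviated from their group means with a correlation of -0.19 over 21123 loci. With the replicate block, 53 loci were called higher and 2 lower. With the numbers crossed, 1625 were higher and 1206 lower, with 5 other pathway loci called. With 2 libraries a group, crossing the numbers only reverses the sign of that correlation, which had been seen first. The crossed fit also had infinite prior degrees of freedom, so it took each variance from the trend alone. Its counts therefore cannot show whether libraries were paired.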
